A study of Mus musculus with 23 samples.

Results

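The genes described here are 41 genes listed as markers of astrocytes or their reactive state, of 45706 gene identifiers in the count table. They were chosen by symbol from a list of astrocyte genes, and all 41 have a row. Gene expression was measured by RNA sequencing of dissected hippocampus from female mice, in 12 wild-type libraries (Ins2+/+, WT) and 11 from mice lacking the Ins2 gene (Ins2-/-, KO), 1 for each sample title. The labels give no strain, age, litter or batch, and say nothing beyond the titles about whether libraries came from separate animals, so p-values measure the spread between these libraries. Ins2 encodes an insulin of the mouse, and it had 0 counts in all 11 KO libraries and 26 counts in WT, 18 of them in WT library 17. Of the 12 WT libraries 5 also had 0, and those other than WT 17 had at most 2. A count of 0 in a library therefore does not tell the genotypes apart.

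Astrocytes are the glial cells that clear glutamate and potassium released by firing neurons, turn glutamate into glutamine, and cover blood vessels with end-feet rich in water and potassium channels. They are coupled to each other by gap junctions and secrete proteins that act on synapses. After injury or inflammation they become reactive, raising intermediate filament proteins such as GFAP and, depending on the stimulus, acute-phase and iron-handling genes. Insulin acts on astrocytes as well as on neurons.

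In this tissue no astrocyte gene passed the test between genotypes. Levels are given as CPM, a gene's counts scaled to a common library total by TMM, and differences as log2 fold changes of KO over WT. Of the 41 genes, 38 passed the filter on low counts, and 0 of these 38 were called at an adjusted p below 0.05 by edgeR's quasi-likelihood F test, both with all 23 libraries and without KO library 8. Over all genes tested, 15828 with all libraries and 15870 without KO library 8, the share called was 0.0126% in each case. At an unadjusted p below 0.05 edgeR gave 2 of the 38, Fgfr3 and Sparc, both higher in KO, which is 5.26% against 5.74% of all genes tested (3.41% higher and 2.34% lower in KO). Without KO library 8 it gave 1 of 38, Serpina3n, lower in KO, which is 2.63% against 4.11% of all genes (2.18% higher and 1.93% lower). DESeq2 called 0 of the 38 and gave 1 at an unadjusted p below 0.05. Of all genes it called 4, and its share of all genes at that unadjusted p is not given here, so its count of 1 cannot be set against it. The median log2 fold change of the 38 was 0.06, and 0.03 without KO library 8, against 0.00 over all genes tested. Of the 38, 25 had a log2 fold change above 0 (65.8%, against 51.0% of all genes), and 24 did without KO library 8 (63.2%, against 51.6%). WT and KO libraries overlapped for each of the 38, and failed to overlap for 0.0126% of all genes tested. In bulk tissue, fewer astrocytes and less RNA per astrocyte cannot be told apart.

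The intervals show how large a difference these libraries leave room for. Without KO library 8, the 95% interval lay within a 1.2-fold change in either direction for 21 of the 38 genes, and within 1.5-fold for 36, Id3 and Cp being the exceptions. With all 23 libraries these counts were 18 and 32. The plot of fold changes shows both fits.

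**Figure D1:**
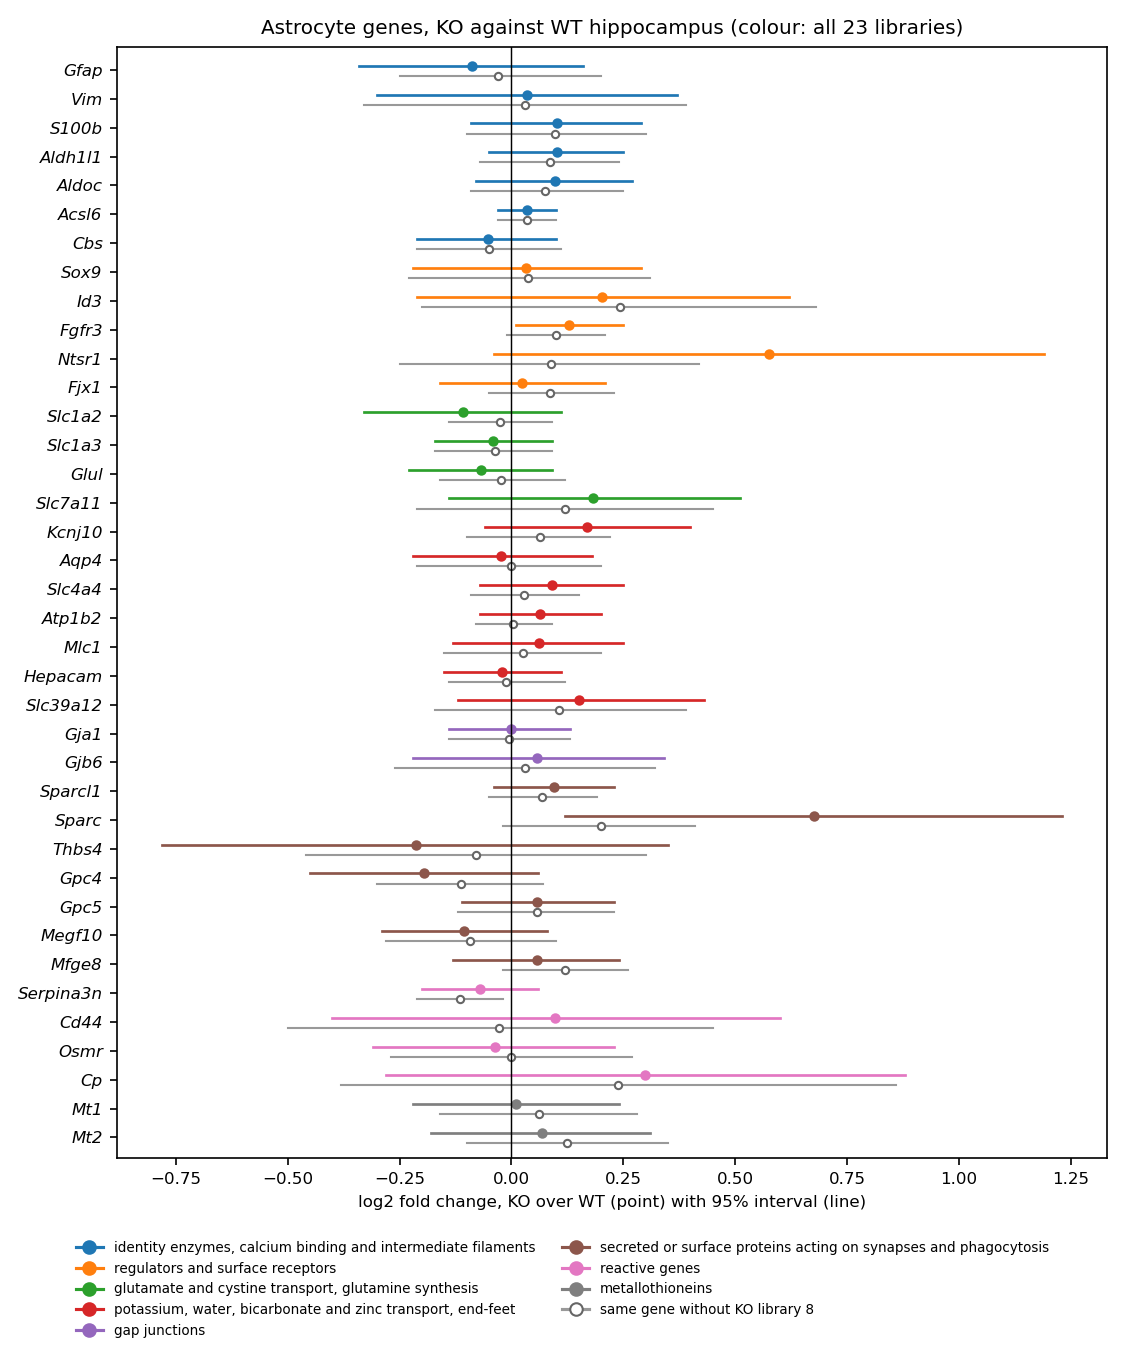
Log2 fold change of KO over WT (point) with its 95% interval (line) for the 38 astrocyte genes tested, coloured by role, with the same gene without KO library 8 in grey. Of the coloured intervals, those of Fgfr3 and Sparc lie above 0, and without KO library 8 that of Serpina3n lies below 0, while 0 of the 38 passed the adjusted threshold in either fit.

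KO library 8 stood apart from the other 22 libraries in genes of other cell types. It held 606 CPM of Pmch, 268 CPM of Oxt and 314 CPM of Avp, hypothalamic neuropeptide genes that reached at most 1.13 CPM elsewhere, and the mean log2 CPM of 10 hippocampal neuron markers was 4.08 there against 6.78 to 7.32 in the others. In 5 further libraries, WT 14, WT 17, KO 2, KO 6 and KO 12, markers of the choroid plexus, the tissue that makes cerebrospinal fluid, were high, at a mean log2 CPM of 5.36 to 8.12 against -0.32 to 1.86 in the other 18. Library totals ran from 13792274 to 22953261 counts. Values below are therefore given for WT (n = 12), for KO without library 8 (n = 10), and for KO library 8 by itself where it lay outside the range of the others or its value bears on a result. Of the defining astrocyte markers Gfap, Aqp4, Aldh1l1, Slc1a2, Slc1a3 and Gja1, none fell below 35.7 CPM in any library, which shows that astrocyte RNA was present and says nothing of the brain region.

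Levels between genes were compared per kilobase of exon, counting every base that GENCODE M21 annotates as exon in any transcript of the gene. The order therefore depends on the annotation as well as on expression. The highest in WT was Glul at 536 CPM per kilobase, followed by Sparcl1 at 517, Slc1a2 at 210.2 and Aldoc at 189. The lowest were Lcn2 at 0.0966, Steap4 at 0.153 and Timp1 at 0.200 CPM per kilobase, and these 3 reactive genes did not pass the filter. After Aldoc came Mt2 at 154, Mt1 at 117 and Gfap at 112 CPM per kilobase. The order of Mt2 and Mt1 rests on annotated exon lengths of 0.59 and 1.25 kilobases. In CPM alone Mt1 was the higher in WT, at a mean of 146 against 90.6 for Mt2. The 5 lowest genes were reactive genes, just under the receptor Ntsr1 at 0.710, while the reactive genes Serpina3n and Cp stood at 23.3 and 1.61. Neighbours in the order were often within their spread, as for Glul and Sparcl1, whose SDs over the 12 WT libraries were 54.6 and 44.4 CPM per kilobase. Spread between WT libraries, as the SD of log2 CPM, was 0.06 for Acsl6, 0.08 for Atp1b2 and 0.11 for Serpina3n, against 0.63 for Cp and 0.64 for Cd44. The median over the members tested was 0.20, near the 0.18 of all genes tested.

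**Figure D2:**
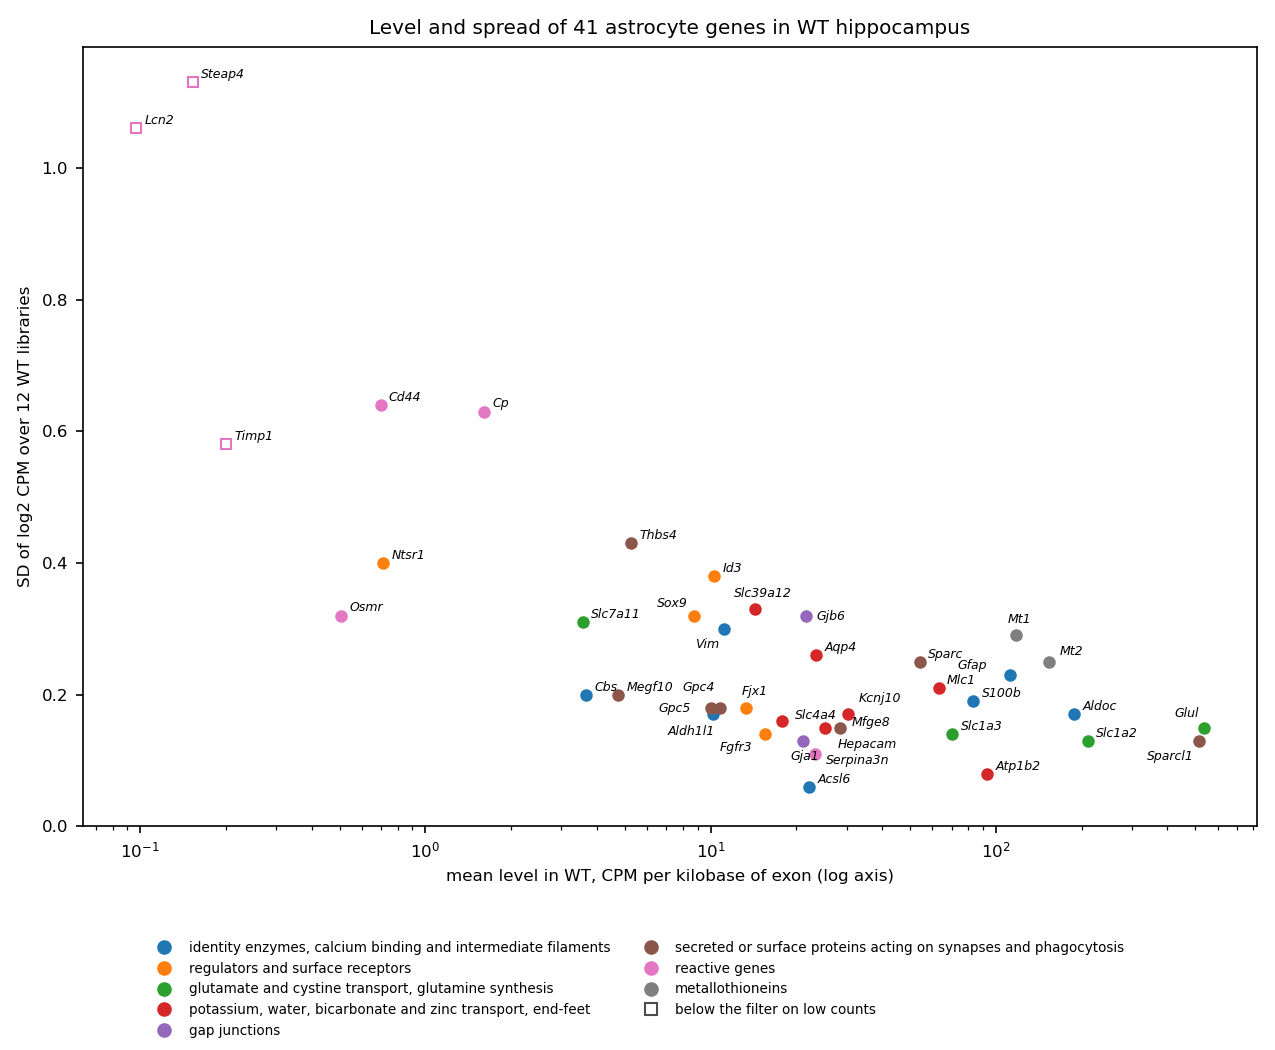
Mean level in WT in CPM per kilobase of exon (log axis) against the SD of log2 CPM over the 12 WT libraries, 1 point a gene, coloured by role, with open squares for the 3 genes below the filter. Acsl6 and Atp1b2 have the smallest SDs, at 0.06 and 0.08, and Cp and Cd44 the largest of the genes tested, at 0.63 and 0.64.

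Identity genes came first. Gfap, the intermediate filament protein most used to mark astrocytes, ranged from 355 to 603 CPM in WT (median 460.2) and from 263 to 533 CPM in KO without library 8 (median 494), with 274 CPM in KO library 8. KO libraries 22, 8 and 18 lay below every WT library, while the other 8 lay within the WT range. The log2 fold change was -0.09 (SE 0.119, 95% interval -0.34 to 0.16, edgeR adjusted p = 0.865), and -0.03 (SE 0.109, adjusted p = 0.982) without KO library 8. It was -0.15 without the 5 libraries rich in choroid plexus RNA and -0.11 with the choroid plexus score as covariate. Vim, the intermediate filament protein vimentin, which endothelium and other cells also express, ranged from 36.2 to 68.4 CPM in WT (median 55.1) and from 23.5 to 83.7 CPM in KO without library 8 (median 53.5). Its highest library was KO 12, which is rich in choroid plexus RNA, and its lowest KO 22. The log2 fold change of Vim was 0.03 (SE 0.163) with all libraries, and -0.12 without the 5 libraries rich in choroid plexus RNA.

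The other 5 identity genes had log2 fold changes between -0.05 and 0.10, and none passed the test. S100b, a calcium-binding protein, was at 124 ± 16.7 CPM in the 12 WT libraries (mean ± SD, as below) and 132 ± 24.5 CPM in the 10 KO libraries without library 8. Aldh1l1, a folate enzyme widely used as a pan-astrocyte marker, was at 46.1 ± 5.46 and 48.7 ± 6.30 CPM, and Aldoc, the glycolytic enzyme aldolase C, at 616 ± 71.7 and 647 ± 103 CPM. Acsl6, a ligase that activates long-chain fatty acids, was the steadiest member, at 220 ± 9.06 CPM in WT and 224 ± 7.71 CPM in KO, and its interval of -0.03 to 0.10 was the narrowest. Cbs, an enzyme of homocysteine metabolism, was at 27.5 ± 3.87 and 26.4 ± 3.0 CPM. KO library 8 lay within the range of the others for 6 of the 7 identity genes and above it for Aldoc, at 775 CPM.

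The 3 regulators Sox9, Id3 and Fjx1 and the receptors Fgfr3 and Ntsr1 had log2 fold changes above 0, none of them called, and those of Sox9 and Fjx1 turned to -0.01 and 0.00 without the libraries rich in choroid plexus RNA. Fgfr3, a receptor for fibroblast growth factors, ranged from 93.0 to 126 CPM in WT (median 112) and from 98.9 to 135 CPM in KO without library 8 (median 120.0), and reached 151 CPM in KO library 8, above every other library. Its log2 fold change was 0.13 (SE 0.0596, edgeR unadjusted p = 0.0417, adjusted p = 0.781), and 0.10 (SE 0.0534, unadjusted p = 0.0776, adjusted p = 0.967) without KO library 8. Ntsr1, a receptor for neurotensin that neurons express, ranged from 1.81 to 4.20 CPM in WT and from 2.31 to 5.08 CPM in KO without library 8. It was 16.2 CPM in KO library 8, 6.02 times the median of the others. Its log2 fold change was 0.58 (SE 0.299) with that library and 0.09 (SE 0.162) without it. Id3, an inhibitor of transcription factors that endothelium also expresses, ranged from 12.3 to 28.8 CPM in WT (median 16.9) and from 7.56 to 33.7 CPM in KO without library 8 (median 20.6). The 5 libraries rich in choroid plexus RNA held its 5 highest values, 27.0 to 33.7 CPM against at most 22.8 CPM elsewhere, and its log2 fold change went from 0.20 (SE 0.201) to 0.02 without them. Sox9, a transcription factor of the astrocyte lineage, was at 36.2 ± 8.80 CPM in WT and 37.0 ± 7.69 CPM in KO, and Fjx1, a secreted regulator of growth, at 41.8 ± 5.18 and 44.3 ± 4.84 CPM, with 24.8 CPM in KO library 8.

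None of the 4 genes of glutamate handling passed the test, and KO library 8 lay outside the range of the others for 3 of them. Slc1a2, the glutamate transporter GLT-1, ranged from 2322 to 3145 CPM in WT (median 2727) and from 2357 to 3001 CPM in KO without library 8 (median 2724). KO library 8 held 1144 CPM, 42.0% of the median of the other 22. The log2 fold change was -0.11 (SE 0.105, edgeR adjusted p = 0.814) with this library and -0.02 (SE 0.0537, 95% interval -0.14 to 0.09, adjusted p = 0.976) without it. Glul, glutamine synthetase, ranged from 1453 to 1989 CPM in WT and from 1400 to 1982 CPM in KO without library 8, with 1214 CPM in KO library 8. Slc1a3, the transporter GLAST, was at 600.1 ± 61.8 CPM in WT and 582 ± 62.9 CPM in KO, and its 589 CPM in KO library 8 lay within the range of the others. Slc7a11, which exchanges cystine for glutamate, was at 49.6 ± 10.8 and 53.6 ± 16.2 CPM, with 82.4 CPM in KO library 8. Slc1a2 and Glul were thus below every other library in KO 8 while Slc7a11 was above, and the genotypes overlapped for all 4 genes.

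Channels and transporters of the end-feet and membrane did not pass the test, with log2 fold changes from -0.02 to 0.17. Kcnj10, the potassium channel Kir4.1, ranged from 136 to 204 CPM in WT (median 163) and from 145 to 231 CPM in KO without library 8 (median 158), and was 319 CPM in KO library 8, 1.99 times the median of the others. Its log2 fold change was 0.17 (SE 0.111) with that library and 0.06 (SE 0.0769) without it. Aqp4, the water channel of end-feet, ranged from 102 to 176 CPM in WT and from 108 to 183 CPM in KO without library 8, with a log2 fold change over all libraries of -0.02 (SE 0.0971). Slc4a4, a sodium bicarbonate cotransporter, was at 193 ± 20.9 and 196 ± 15.2 CPM, and Atp1b2, a subunit of the sodium pump, at 381 ± 22.2 and 380.5 ± 23.6 CPM. Without KO library 8 the interval of Atp1b2 was -0.08 to 0.09. KO library 8 lay above all others for both, at 298 and 575 CPM. Mlc1, a membrane protein of end-feet, was at 177 ± 27.0 and 179 ± 26.0 CPM, and its partner Hepacam at 84.4 ± 8.89 and 83.3 ± 9.15 CPM. Slc39a12, a zinc transporter, was at 43.0 ± 11.9 and 46.1 ± 10.1 CPM, and its highest library was WT 17, which is rich in choroid plexus RNA.

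Neither gap junction gene passed the test. Gja1, connexin 43, was at 217 ± 19.8 CPM in WT and 215 ± 27.5 CPM in KO without library 8, with a 95% interval of -0.14 to 0.13 for its log2 fold change without KO library 8. Gjb6, connexin 30, was at 57.6 ± 14.6 and 58.5 ± 14.2 CPM, with an interval of -0.26 to 0.32 without KO library 8. KO library 8 lay within the range of the others for both.

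Among secreted and surface proteins, Sparc had the largest log2 fold change of all members with all 23 libraries by edgeR, but not without KO library 8, where Id3 and Cp (both 0.24) were above it, or with DESeq2, where it was 0.19 and Cp 0.30. Sparc, a matrix protein that opposes the synapse-promoting Sparcl1 and is also made by microglia and endothelium, ranged from 153 to 279 CPM in WT (median 208) and from 173 to 341 CPM in KO without library 8 (median 237). KO library 8 held 1260 CPM, 5.69 times the median of the other 22. The log2 fold change was 0.68 (SE 0.269, edgeR unadjusted p = 0.019, adjusted p = 0.781), and 0.20 (SE 0.105, unadjusted p = 0.0697, adjusted p = 0.967) without that library. Microglial markers in KO library 8 had a mean log2 CPM of 4.33, below the 4.37 to 5.04 of the others, and endothelial markers were at 4.09, within 2.99 to 4.47. The part of these cells in the Sparc value was not tested. Sparcl1, also called hevin, was at 1518 ± 130 CPM in WT and 1587 ± 169 CPM in KO without library 8, with 1973 CPM in KO library 8.

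Thbs4, a thrombospondin that acts on synapse formation, ranged from 9.99 to 25.6 CPM in WT (median 16.7) and from 9.33 to 29.2 CPM in KO without library 8 (median 16.6). It was at 1.19 CPM in KO library 8, 7.19% of the median of the others. Its log2 fold change was -0.21 (SE 0.273) with that library and -0.08 (SE 0.183) without it. The glypicans Gpc4 and Gpc5, surface proteoglycans of which Gpc4 promotes excitatory synapses, were at 28.5 ± 3.58 and 44.7 ± 5.48 CPM in WT and at 26.3 ± 4.76 and 46.3 ± 7.67 CPM in KO without library 8. Gpc4 was also low in KO library 8, at 11.3 CPM. The phagocytic receptor Megf10 was at 36.6 ± 4.88 and 34.1 ± 6.11 CPM. Mfge8, which bridges phagocytes to dying cells, was at 133 ± 13.9 and 144 ± 17.4 CPM, with 81.9 CPM in KO library 8.

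None of the 4 reactive genes tested passed the adjusted threshold. Serpina3n, a serine protease inhibitor that rises in most forms of reactive astrocyte, ranged from 43.9 to 56.5 CPM in WT (median 47.3) and from 39.0 to 47.9 CPM in KO without library 8 (median 44.5). The 10 KO libraries overlapped the lower part of the WT range and reached below it, while KO library 8 held 61.3 CPM, above all others. Without it the log2 fold change was -0.11 (SE 0.0476, 95% interval -0.21 to -0.02, edgeR unadjusted p = 0.0247, adjusted p = 0.967), and with it -0.07 (SE 0.0612, unadjusted p = 0.266, adjusted p = 0.803). Serpina3n belongs to a family of near-identical genes, and its counts were fractional in 15 libraries, so reads may have been divided among copies. Counts were also fractional in 23 libraries for Slc7a11, in 22 for Fgfr3 and Glul, in 12 for Acsl6, in 11 for Slc1a2, in 8 for Aldh1l1 and in 2 for Cp, and the values of these genes are uncertain to that extent. An antisense gene overlaps 13.9% of the exon bases of Fgfr3, and it had 469 counts in all against 46140 for Fgfr3.

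Cd44, an adhesion receptor for hyaluronan, ranged from 1.58 to 8.68 CPM in WT and from 2.19 to 7.22 CPM in KO without library 8, and was 9.44 CPM in KO library 8. Osmr, a subunit of the oncostatin M receptor, was at 6.15 ± 1.36 and 6.13 ± 1.34 CPM. Cp, the iron oxidase ceruloplasmin, which choroid plexus also makes, ranged from 8.44 to 29.7 CPM in WT and from 6.20 to 36.7 CPM in KO without library 8. The 5 libraries rich in choroid plexus RNA held 15.4 to 36.7 CPM of Cp against 6.20 to 27.7 CPM in the other 18, and its log2 fold change was 0.30 (SE 0.282) with them, 0.24 without them and 0.17 with the choroid plexus score as covariate.

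Lcn2, a secreted iron-siderophore-binding protein of acute inflammation, had 52 counts over the 12 WT libraries and 50 over the 11 KO libraries, 28 of them in KO library 6. Timp1, a metalloproteinase inhibitor, had 36 counts in WT and 52 in KO, with at most 9 in any library. Steap4, a metalloreductase, had 95 and 71 counts, and stood at 0.671 to 2.66 CPM in the 5 libraries rich in choroid plexus RNA against at most 0.313 CPM in the other 18. A library with 0 counts could have held up to 3, a limit that covers counting error only. No fold change is given for these 3 genes.

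**Figure D3:**
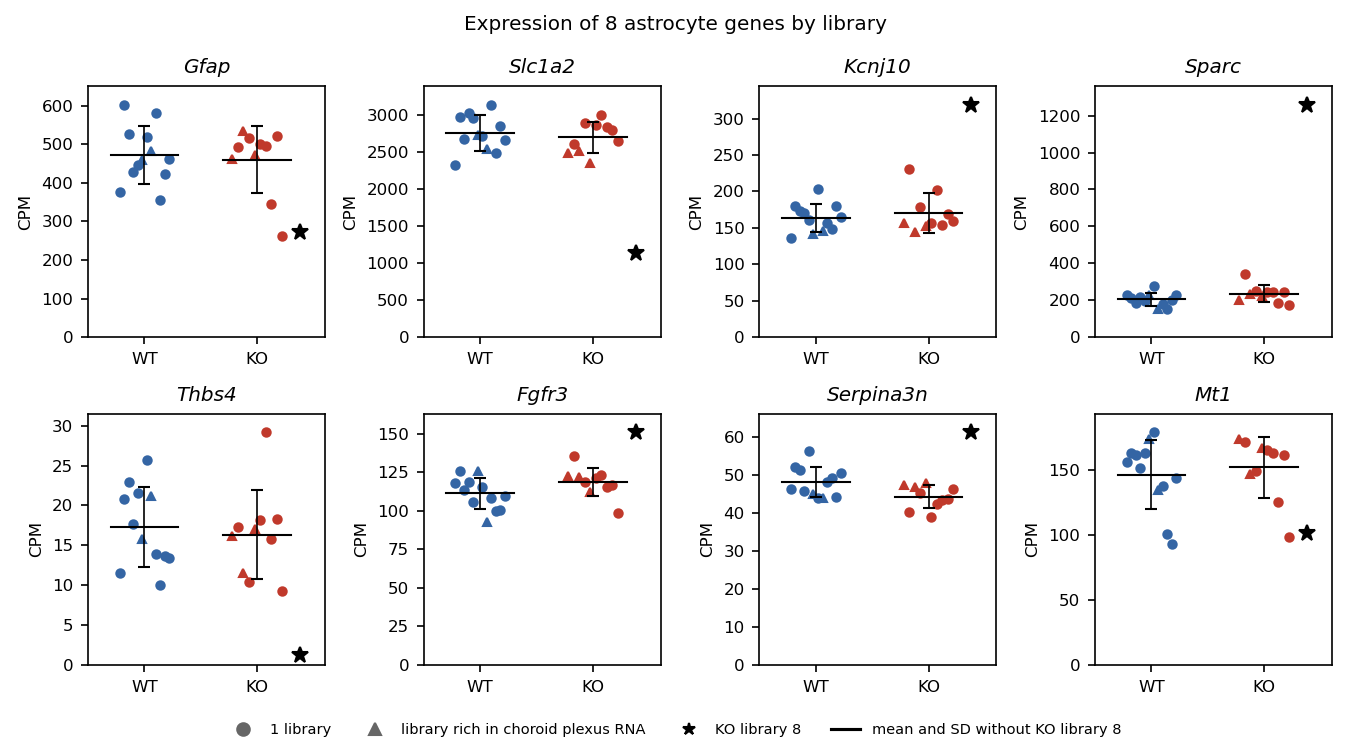
CPM of 8 astrocyte genes by library in WT and KO, with circles for libraries, triangles for the 5 rich in choroid plexus RNA, a star for KO library 8, and lines for the mean and SD without that library. KO library 8 lies above every other library for Kcnj10, Sparc, Fgfr3 and Serpina3n and below for Slc1a2 and Thbs4, and the genotypes overlap in all panels.

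Metallothioneins bind zinc and copper and are induced by metals and glucocorticoids. Mt1 lies on chromosome 8 at 94179082 to 94180327 and Mt2 at 94172664 to 94173568 (GENCODE M21, GRCm38, plus strand), 5514 bases apart. Mt1 ranged from 93.0 to 179 CPM in WT (median 154) and from 98.7 to 173 CPM in KO without library 8 (median 162), and was 101 CPM in KO library 8. Mt2 ranged from 61.3 to 106 CPM in WT and from 62.0 to 123 CPM in KO without library 8, and was 60.0 CPM in KO library 8. Their log2 fold changes over all libraries were 0.01 (SE 0.113) and 0.07 (SE 0.119), and 0.06 and 0.13 without KO library 8. That of Mt1 was -0.01 with the choroid plexus score as covariate. The 5 lowest libraries were the same for both genes, WT 20, WT 23, KO 8, KO 18 and KO 22, from both genotypes.

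Across the 23 libraries log2 CPM of Mt1 and Mt2 varied together, with Pearson r = 0.90 and Spearman rho = 0.81 (permutation test, adjusted p = 8e-05 and 0.00016 over 8 gene pairs). The first corresponds to p = 1e-05, the smallest that 100000 resamples can give. The correlation was 0.93 within WT, 0.90 within KO, 0.88 over the 17 libraries left without KO 8 and those rich in choroid plexus RNA, and 0.88 without the 2 libraries farthest from the median of Mt1. Because Mt1 and Mt2 varied together, their promoters are shown as held by the RefSeq promoter table for GRCm38.p6, from 250 bases before to 50 after the gene start of that table, which differs from the GENCODE M21 start given above. Capitals mark the core of the metal response element, the site of the zinc-sensing factor MTF1, searched as TGCACNC or TGCGCNC on both strands.
Mt1 promoter, chr8:94178839-94179138, plus strand: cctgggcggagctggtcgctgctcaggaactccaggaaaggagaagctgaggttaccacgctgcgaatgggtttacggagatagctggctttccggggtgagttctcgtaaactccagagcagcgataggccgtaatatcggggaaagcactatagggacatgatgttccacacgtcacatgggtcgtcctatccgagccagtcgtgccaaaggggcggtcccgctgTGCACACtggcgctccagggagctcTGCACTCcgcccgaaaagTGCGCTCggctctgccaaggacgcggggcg
Mt2 promoter, chr8:94172368-94172667, plus strand: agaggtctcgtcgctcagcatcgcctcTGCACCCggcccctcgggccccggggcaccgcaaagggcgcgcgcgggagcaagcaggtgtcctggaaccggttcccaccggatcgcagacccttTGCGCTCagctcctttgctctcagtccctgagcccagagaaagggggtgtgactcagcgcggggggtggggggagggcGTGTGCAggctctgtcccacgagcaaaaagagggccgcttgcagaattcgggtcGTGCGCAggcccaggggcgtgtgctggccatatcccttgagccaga
The Mt1 window holds 3 matches and the Mt2 window 4. Of 32851 promoters of this length in the table, 25.7% hold at least 1 match, 1.97% at least 3 and 0.517% at least 4. For 35 of the 41 genes the table has a promoter, 41 windows in all, of which 13 hold at least 1 match and 2, those of Mt1 and Mt2, at least 3. A match is a description of letters and not a measured binding site. A further gene on the opposite strand overlaps 73.5% of the exon bases of Mt2 in GENCODE M21, and whether counting used strand is not given in the sources used here.

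The other 7 gene pairs were chosen for related roles. Sparcl1 and Sparc correlated at r = 0.68 and rho = 0.67 (permutation test, adjusted p = 0.00056 and 0.00256), at 0.80 over the 17 libraries, and at 0.56 without the 2 farthest libraries. Gfap and Aqp4 correlated at r = 0.59 and rho = 0.51 (permutation test, adjusted p = 0.00784 and 0.0268), and at 0.50 without the 2 farthest. Within KO r was 0.72 (permutation test, adjusted p = 0.0327), and within WT 0.46 (adjusted p = 0.208), which did not pass. For Gfap and Vim r was 0.57 (permutation test, adjusted p = 0.0106), rho 0.39 (adjusted p = 0.0866), and r over the 17 libraries 0.78 (adjusted p = 0.0012). This pair did not pass within WT (r = 0.43, permutation test, adjusted p = 0.223) or within KO (r = 0.64, adjusted p = 0.069). Gja1 and Gjb6 at r = 0.41, Serpina3n and Lcn2 at 0.31, Kcnj10 and Aqp4 at 0.27 and Slc1a2 and Slc1a3 at 0.24 did not pass the adjusted threshold by Pearson r over all libraries. Gja1 and Gjb6 passed over the 17 libraries (r = 0.55, permutation test, adjusted p = 0.0343). They did not pass within WT (r = 0.24, permutation test, adjusted p = 0.427) or within KO (r = 0.55, adjusted p = 0.134). For Kcnj10 and Aqp4 rho was 0.50 (permutation test, adjusted p = 0.0268), and r was 0.55 (adjusted p = 0.0176) without KO libraries 4 and 8. Within WT r was 0.64 (permutation test, adjusted p = 0.0671) and within KO 0.11 (adjusted p = 0.818), and neither passed. For Slc1a2 and Slc1a3 rho was 0.61 (permutation test, adjusted p = 0.00664), and r was 0.57 without KO library 8 and WT library 1, but 0.41 (adjusted p = 0.115) over the 17 libraries, 0.48 within WT and 0.16 within KO. All 8 correlations are across bulk libraries, which also differ in tissue composition.

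**Figure D4:**
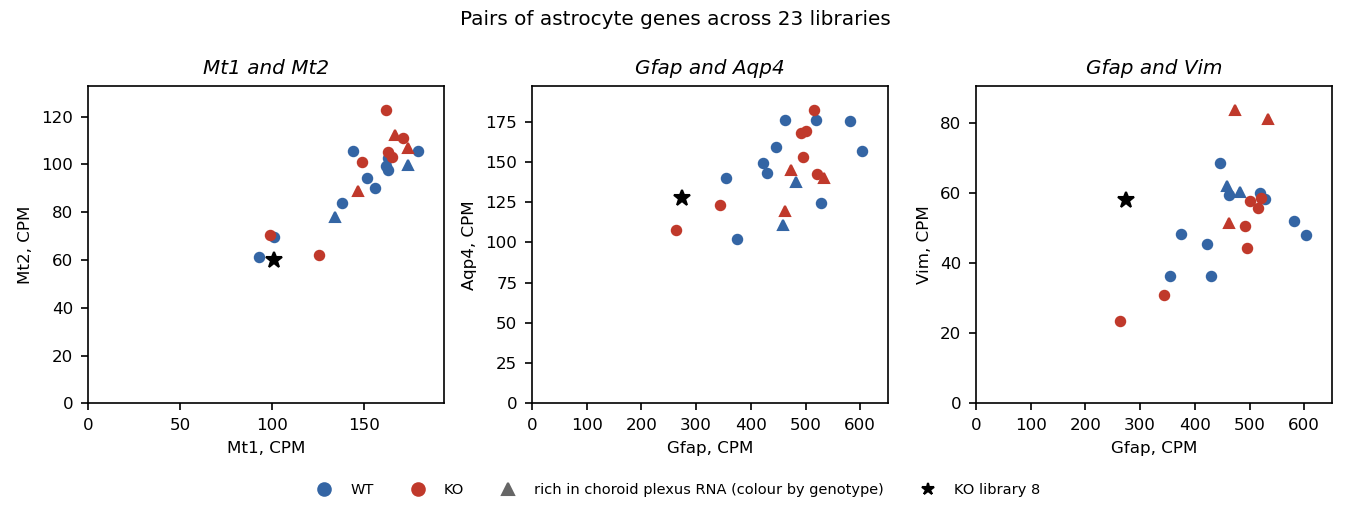
CPM of Mt1 against Mt2, Gfap against Aqp4 and Gfap against Vim, 1 point a library, with WT in blue, KO in red, triangles for the 5 libraries rich in choroid plexus RNA and a star for KO library 8. Mt1 and Mt2 lie along a line with r = 0.90, while for Gfap and Vim 2 KO libraries rich in choroid plexus RNA sit above 80 CPM of Vim.

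Seen across the members, KO library 8 lay outside the range of the other 22 for 18 of 38 genes (47.4%), above it for 11 and below it for 7. Over all genes tested the same held for 45.7%, above for 21.7% and below for 24%. The members were thus displaced about as often as genes in general, and in both directions. The highest relative to the median were Ntsr1 and Sparc, and the lowest Thbs4, Gpc4 and Slc1a2, at 7.19%, 41.3% and 42.0% of the median. Gfap, Mt1 and Aqp4 lay within the range.

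**Figure D5:**
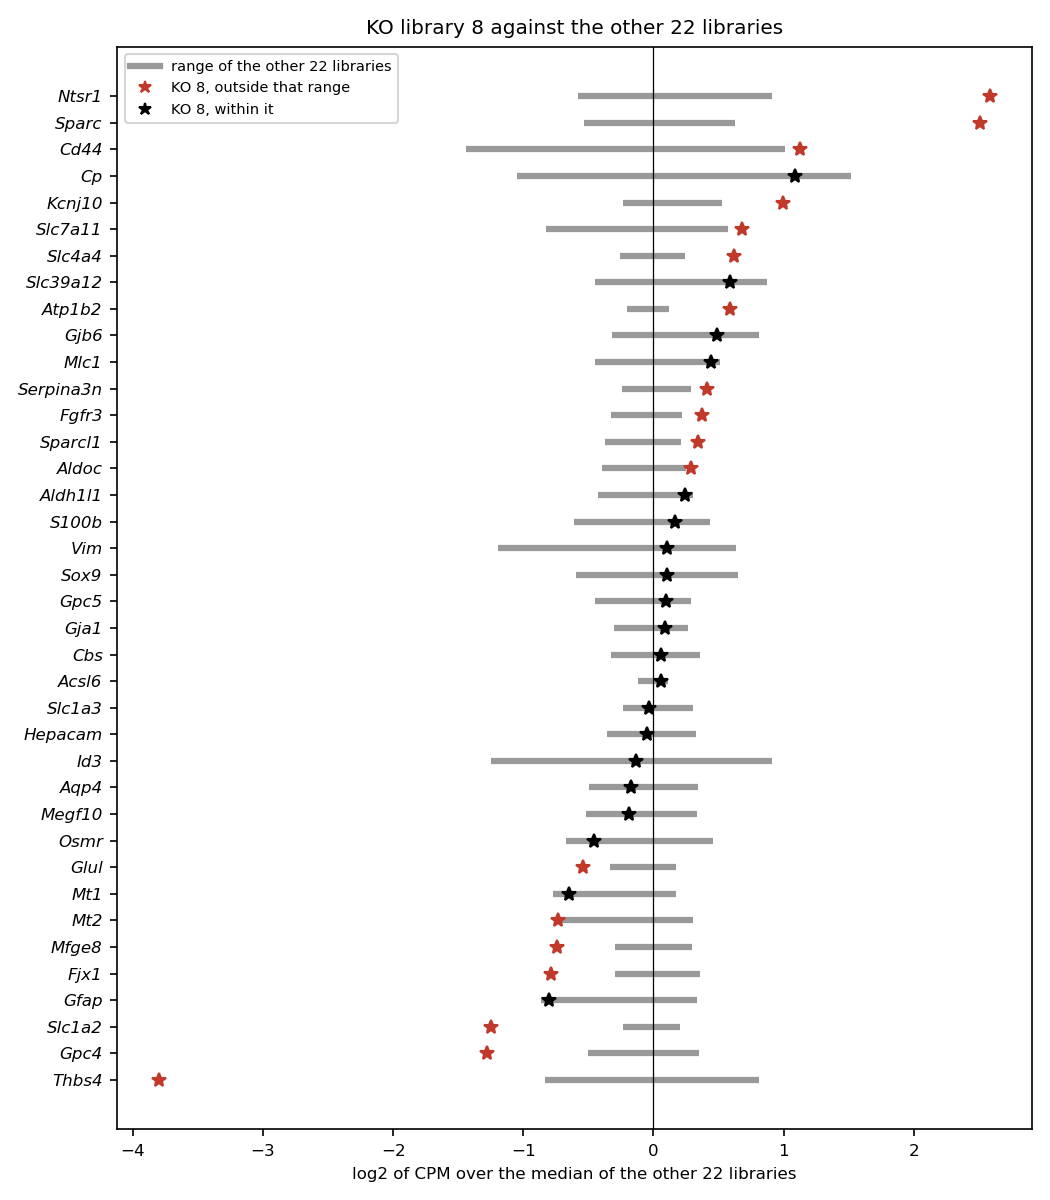
Log2 of the CPM in KO library 8 over the median of the other 22 libraries for the 38 astrocyte genes tested (stars, red where outside the range of the others), with that range as a grey bar. Of the stars, 11 lie above and 7 below the range.

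A second library, KO 22, was the lowest of the 22 without KO 8 for 12 of the 38 members (31.6%, against 10.3% of all genes tested). These were Gfap, Vim, S100b, Aldoc, Sox9, Id3, Glul, Mlc1, Hepacam, Gja1, Thbs4 and Cp. Among the same 22 libraries KO 22 also had the lowest mean log2 CPM of markers of ependyma (-0.40 against at least 0.76), endothelium and mural cells (2.99 against 3.09), fibroblasts (1.75 against 1.84), oligodendrocytes (6.29 against 6.46), their precursors (5.15 against 5.22) and microglia (4.37 against 4.51). It was also lowest for choroid plexus (-0.32 against -0.09) and for the further astrocyte identity and reactive genes (5.83 against 5.85, and 1.55 against 1.80). For hypothalamic neurons it was at -2.0 against -1.93, but only 2 of those 12 genes passed the filter, so that value rests on very low counts. Hippocampal neuron markers, at 7.28, were within the range of the others. WT library 20 was lowest for 6 members (15.8%, against 4.71%), and WT library 15 highest for 6 (15.8%, against 6.63%). KO 16 was highest for 5 members (13.2%, against 6.6%) and KO 12 for 4 (10.5%, against 8.16%), so libraries at both ends came from both genotypes. Of the 22 libraries, WT 20 had the highest hippocampal neuron markers, at 7.32, and low oligodendrocyte and microglial markers, at 6.46 and 4.51. WT 15 had the lowest hippocampal neuron markers, at 6.78, with oligodendrocyte markers at 7.66 and microglial markers at 5.02. KO 16 had the highest oligodendrocyte markers, at 7.79, with microglial markers at 5.04. KO 12 had the highest fibroblast and ependymal markers, at 4.99 and 2.99, and the highest further reactive genes, at 2.80, with choroid plexus markers at 7.74. The part of these in the astrocyte values was not tested. Without KO library 22 the log2 fold change was -0.03 for Gfap, 0.11 for Vim and -0.16 for Thbs4.

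Other astrocyte genes, listed for their role, gave the same count of calls. Of 40 further identity genes, all tested, 0 were called by edgeR, and 4 were at an unadjusted p below 0.05, all higher in KO, where 5.74% of all genes tested were at that p and 3.41% were also higher. Without KO library 8 the count was 2, both higher, against 4.11% of all genes at that p and 2.18% also higher. Ntsr2, an astrocytic neurotensin receptor, was at 72.5 ± 6.46 CPM in WT and 81.1 ± 11.5 CPM in KO without library 8. Its log2 fold change was 0.18 (SE 0.0691, edgeR adjusted p = 0.781) with all libraries and 0.17 without KO library 8. Itih3 and Paqr6 had log2 fold changes of 1.27 and 0.51, with 291 and 25.7 CPM in KO library 8 against at most 39.5 and 11.6 CPM elsewhere, and 0.18 and 0.27 without that library. Of 35 further reactive genes, 30 were tested, and edgeR called 0 and gave 0 at an unadjusted p below 0.05. The 3 with the smallest p were S100a10, H2-T23 and Iigp1, with log2 fold changes of 0.20, 0.48 and -0.33. Without KO library 8 these were 0.16, 0.24 and -0.45, and Iigp1 was then at an unadjusted p of 0.0363 and an adjusted p of 0.967 by edgeR. H2-T23 was at 19.1 CPM in KO library 8 against at most 13.8 CPM elsewhere.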

How the data were processed

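RNA from hippocampus of female mice was sequenced in 12 WT and 11 KO libraries, made with a stranded mRNA kit per the labels' protocols. The authors made and deposited 1 table of estimated counts per gene, with 24.6% to 27.2% of non-zero values fractional in a library. STAR, bcl2fastq and mm10 are named in the submitters' processing notes. The counting program, its use of strand and the annotation are not given in the sources used here. Each column was matched by its library name, with 0 left unmatched.

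Rounded counts entered edgeR 4.0.16 under R 4.3.3 (filterByExpr, TMM, robust quasi-likelihood F test, genotype as the term), with Benjamini-Hochberg adjustment over 15828 genes. Standard errors come from the fold change and F. Correlations were computed on log2 CPM (prior count 2), with 100000 permutations, two-sided. A simulated comparison of KO with WT over 15732 genes drew counts independently for each library around 1 mean per gene. It held no outlying library and no shared shift in tissue composition. There edgeR called 63.5% of 85 genes changed by 0.5 and 89.1% of 110 changed by 1 on the log2 scale, and 8 unchanged genes. These shares do not carry over to the members, because the real libraries differ in tissue composition. Figures and tables used Python 3.11.15.

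All 41 members are named, and from each of the 2 other astrocyte lists any called gene and the 3 with the smallest p. Members, lists, pairs and the choroid plexus threshold (mean log2 CPM above 4) were chosen with earlier results of these data known. Alternatives were RLE size factors, DESeq2 1.42.0, filters on low counts, the choroid plexus score as covariate, and leaving out libraries.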

Additional observations from a re-analysis of the deposited data

How the results depend on the processing

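No paired analysis was possible because no replicate number occurs in both genotypes. The count of members called was 0 under each alternative run. Of all genes, edgeR called 2, DESeq2 4, and requiring a mean of 50 counts or leaving out the libraries rich in choroid plexus RNA 1. Leaving out 1 library at a time gave 2 to 3. Members at an unadjusted p below 0.05 numbered 2, but 1 with DESeq2, and 1 to 3 when 1 library was left out. The count was 1 without WT 11, WT 20, KO 2, KO 4, KO 6 or KO 16 (Sparc), or without KO 8 (Serpina3n). It was 3 without WT 15 or KO 12 (Fgfr3, Ntsr1 and Sparc). Fgfr3 also dropped out where the count stayed at 2: without WT 17 the genes were Slc39a12 and Sparc, and without WT 23 Ntsr1 and Sparc. The count was 3 with the choroid plexus score as covariate and 3 without the libraries rich in choroid plexus RNA. Without KO library 8 the count of 1 became 2 when the libraries rich in choroid plexus RNA were also left out. The other identity list gave 4, but 2 with DESeq2 or without KO library 8, 3 with no filter and 6 without the libraries rich in choroid plexus RNA. The other reactive list gave 0, but 2 without the libraries rich in choroid plexus RNA and 1 without KO library 8. Shares of all genes at that unadjusted p are given above only for edgeR with all 23 libraries and without KO library 8. The counts of members and list genes under the other alternatives therefore cannot be set against genes in general.

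Signs changed near 0: Vim to -0.057 with the choroid plexus score as covariate and -0.119 without the libraries rich in choroid plexus RNA, Sox9 to -0.010 and -0.011, and Mt1 to -0.011 and -0.035. Fjx1 went to -0.001 without those libraries and Cd44 to -0.027 without KO library 8. Gja1 became 0.001 with RLE or DESeq2, 0.000 with no filter, 0.002 when a mean of 50 counts was required, 0.004 with the covariate and 0.037 without the libraries rich in choroid plexus RNA. DESeq2, run with its default replacement of outlying counts, gave 0.188 for Sparc and 0.075 for Ntsr1 with all libraries. The edgeR values without KO library 8 were 0.199 and 0.088. Which counts DESeq2 replaced was not recorded. Leaving out 1 library moved Vim between -0.050 (without KO 12) and 0.112 (without KO 22), and below 0 also without KO 6, WT 10 or WT 20. It moved Thbs4 between -0.358 (without KO 16) and -0.080 (without KO 8). The causes were not tested.

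Of the correlations, rank gave 0.61 for Slc1a2 and Slc1a3, 0.39 for Gfap and Vim and 0.50 for Kcnj10 and Aqp4. Leaving out the 2 farthest libraries gave 0.57 for Slc1a2 and Slc1a3 and 0.55 for Kcnj10 and Aqp4. Over the 17 libraries Gja1 and Gjb6 reached 0.55 (permutation test, adjusted p = 0.0343) and Kcnj10 and Aqp4 0.51 (adjusted p = 0.0493). Both pairs passed the adjusted threshold there. Gfap and Vim gave 0.43 within WT and 0.64 within KO, and Gfap and Aqp4 0.46 within WT. Depth limits Lcn2, Timp1 and Steap4, which did not pass the filter on low counts.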

Other observations

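Mt3, the metallothionein of brain, averaged 256 ± 29.6 CPM over the 12 WT libraries and 269 ± 36.0 CPM over the 10 KO libraries other than library 8 (SD), and at 165 CPM in KO library 8 against 183 to 299 CPM in the other 22. Slc6a11, a GABA transporter of astrocytes, held 644 CPM in KO library 8 against 88.8 to 214 CPM in the other 22. Apoe, the main lipid carrier made by astrocytes, had a WT level of 745 CPM per kilobase of exon, above Glul. In CPM alone its WT mean was 1593, below the 1780 of Glul.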
